A study of Homo sapiens with 2 samples.

Results

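Genes that fold, import and dispose of proteins in the endoplasmic reticulum (ER) were examined in QGP1 cells. QGP1 is an established line grown from a human neuroendocrine tumour of the pancreas (pNET). A total of 40 genes made up the set, and 37 of them had at least 1 array probe set annotated to that gene alone, out of 19775 genes measured in that way. ALDH high cells, QGP1 cells sorted by flow cytometry for high aldehyde dehydrogenase activity, were set against control QGP1 cells. Each group had 1 Affymetrix array, both from the same line, and the sources used here do not say if the control cells were sorted too. Values are RMA levels, which are log2 brightness values normalised between the arrays, and differences are ALDH high minus control on that log2 scale. With 1 array per group no difference has a replicate check, so no test was made and every difference describes these 2 arrays.

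Secretory and membrane proteins enter the ER through the Sec61 channel, fold with the help of chaperones and disulphide isomerases, and are pulled back into the cytosol for destruction when folding fails, a route called ER-associated degradation. When unfolded protein builds up, the sensors IRE1 (gene ERN1), ATF6 and PERK start the unfolded protein response. ATF6 and the spliced form of XBP1 then switch on most chaperone and degradation genes, while PERK acts through ATF4 on amino acid and stress genes. Endocrine cells of the pancreas make large amounts of secreted peptide and depend on this machinery. The array cannot tell spliced from unspliced XBP1 mRNA or cleaved from full-length ATF6 protein.

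ALDH high cells had lower levels of nearly all ER genes, mostly by modest amounts. Of the 37 measured genes 36 lay below 0 (97.3%), whereas 50.3% of all genes did. Their median difference was -0.46, a 1.37-fold lower level, beside a median of -0.01 over all genes. Over 1.5-fold lower were 11 of the 37 genes, a class that held 4.21% of all genes, and none was over 1.5-fold higher, a class that held 2.61%. HERPUD1 and EDEM1 were the 2 genes over 2-fold lower (1.23% of all genes), and no gene of the set was over 2-fold higher (0.465%). That count of 2 came to 1 when the probe sets of a gene were averaged, without probe sets that share targets between transcripts, or with a pseudocount. All 37 genes had a mean level at or above the array median. Among the 12522 genes at or above that median, 50.3% lay below 0, 5.52% were over 1.5-fold lower and 3.53% over 1.5-fold higher. This cut does not match the genes for level, because most ER genes lay far above it. Over 2-fold lower were 1.66% of those bright genes and over 2-fold higher 0.607%.

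**Figure D1:**
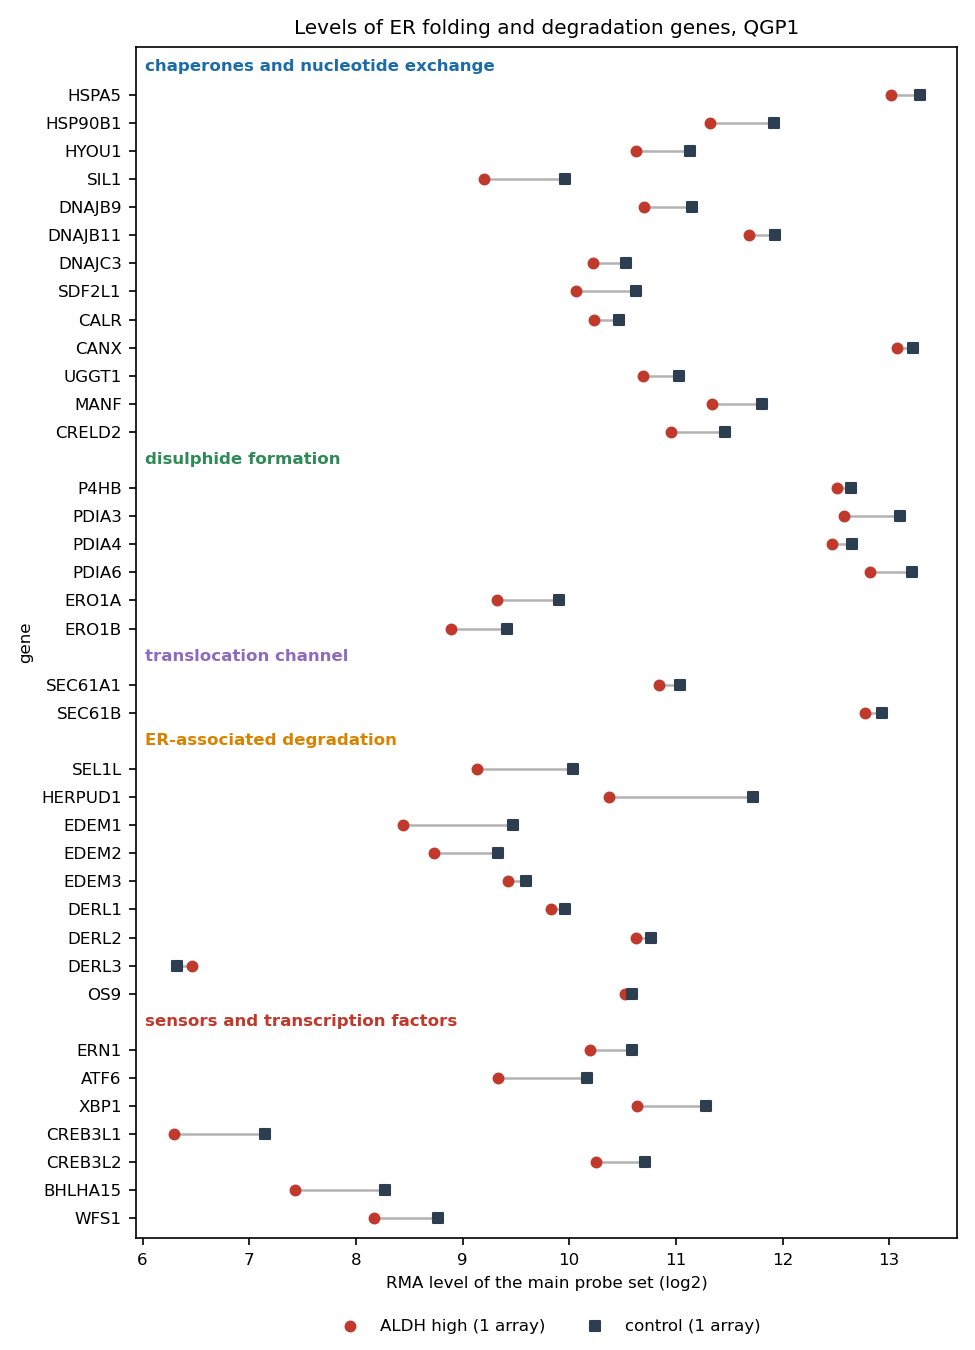
RMA level (log2) of the brightest probe set of each of the 37 measured ER genes, grouped by role, on the ALDH high array (circles) and the control array (squares), 1 array each. The ALDH high circle lies left of the control square for 36 genes, and DERL3 is the exception. Levels of different genes come from different probe sets and are not comparable with each other.

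The promoters of several of these genes carry short elements through which the unfolded protein response acts, and their sequences show where these lie. The set holds many genes that this response switches on, so a raised share of its elements is not an independent result. RefSeq windows (GRCh38.p14) running from 250 bases before to 50 bases after the annotated gene start were found for 37 of the 40 genes, with DERL1, DERL3 and PDIA3 not matched. The ER stress element, searched on both strands as CCAAT and CCACG separated by 9 bases, was found in 8 of these 37 genes (21.6%) and in 0.0916% of the 27305 genes with a window. The 8 were HSPA5, HSP90B1, CALR, CANX, CRELD2, PDIA6, ERO1B and XBP1. In the 5 stretches that follow, each on the strand of its gene, capitals mark the fixed letters of the element. It runs in reverse in the stretches of HSP90B1, CALR and CRELD2. HSP90B1 held another match, which runs forward and is not printed.
HSPA5, chr9:125241371-125241429, minus strand: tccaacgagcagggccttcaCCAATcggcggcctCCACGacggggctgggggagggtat
HSP90B1, chr12:103930301-103930359, plus strand: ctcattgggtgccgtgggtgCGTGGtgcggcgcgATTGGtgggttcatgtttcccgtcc
CALR, chr19:12938364-12938422, plus strand: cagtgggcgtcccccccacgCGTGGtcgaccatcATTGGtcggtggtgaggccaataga
CRELD2, chr22:49918534-49918592, plus strand: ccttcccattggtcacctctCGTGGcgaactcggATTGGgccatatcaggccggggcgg
XBP1, chr22:28800583-28800641, minus strand: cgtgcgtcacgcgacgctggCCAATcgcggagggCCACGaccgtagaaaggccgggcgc

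A compact version, the ER stress element II, searched on both strands as ATTGG and CCACG separated by 1 base, was found in HERPUD1, HYOU1 and SDF2L1, 3 of the 37 genes (8.11%), and in 0.0696% of all genes with a window. HERPUD1, which had the lowest difference of the set, also held a match to TGATGNAA, an element bound by ATF4 together with C/EBP factors. That shorter element was found in 2 of the 37 genes (5.41%), HERPUD1 and CREB3L2, a share close to the 4.46% of all genes. CREB3L2 differed by -0.46, the median of the set. The HERPUD1 stretch shows both, the reversed TGATGNAA first and the ER stress element II after it, and capitals again mark the fixed letters. Element II runs in reverse in the HYOU1 and SDF2L1 stretches. The unfolded protein response element TGACGTGG occurred in HYOU1 only (2.70%, against 0.927% of all genes), where it overlaps the farther of the 2 matches to element II.
HERPUD1, chr16:56931946-56932055, plus strand: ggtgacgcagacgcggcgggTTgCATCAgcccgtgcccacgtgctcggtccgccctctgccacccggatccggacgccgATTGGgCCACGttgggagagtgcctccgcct
HYOU1, chr11:119057254-119057304, minus strand: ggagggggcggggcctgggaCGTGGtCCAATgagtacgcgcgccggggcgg
SDF2L1, chr22:21642094-21642144, plus strand: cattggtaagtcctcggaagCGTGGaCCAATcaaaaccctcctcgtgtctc

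**Figure D2:**
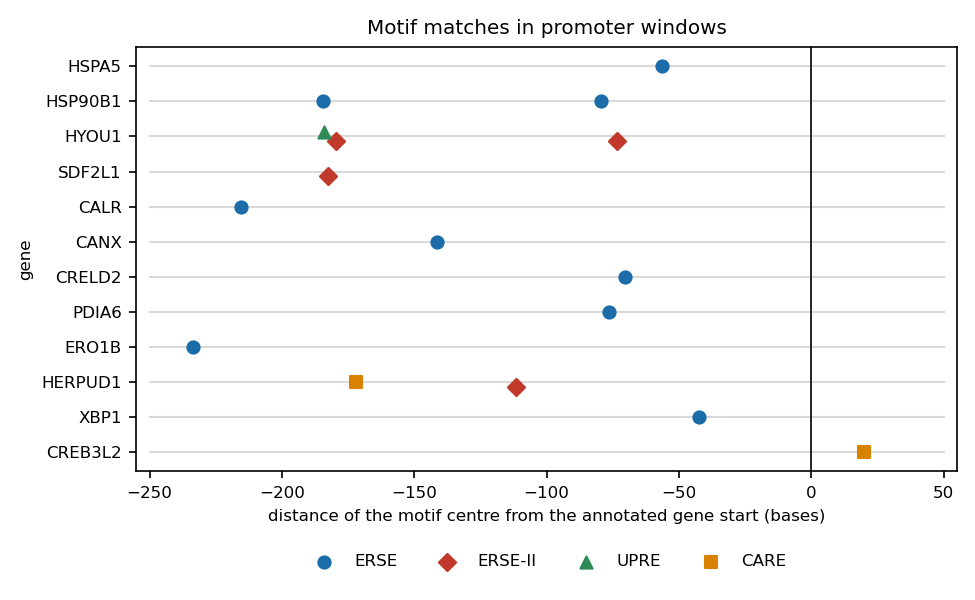
Distance in bases from the annotated gene start to the centre of each motif match, for the ER genes with at least 1 match. ERSE is the ER stress element, ERSE-II its compact version, UPRE is TGACGTGG and CARE is TGATGNAA. The ERSE match of HSPA5 begins 66 bases before the gene start and that of XBP1 52 bases before it, whereas the ERO1B match begins 243 bases before it.

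Both ER genes with and ER genes without the ER stress element were lower in ALDH high cells. The 8 genes with it had a median of -0.45 and ranged from -0.64 to -0.16, while the 26 other genes with both a window and a level had a median of -0.47 and ranged from -1.35 to -0.06. The 3 genes with element II stood at -1.35 (HERPUD1), -0.56 (SDF2L1) and -0.50 (HYOU1). Outside the set, 10 measured genes held the ER stress element, of which 8 lay below 0 (80%) with a median of -0.20. A further 16 held element II, of which 9 lay below 0 (56.3%) with a median of -0.08. TGATGNAA was held by 554 measured genes outside the set, of which 309 lay below 0 (55.8%) with a median of -0.04. TGACGTGG was held by 179, of which 117 lay below 0 (65.4%) with a median of -0.09. Of all genes 50.3% lay below 0, with a median of -0.01, and whether the shares above differ from that was not tested. A match describes the letters in the window and is not evidence that a factor binds there.

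Chaperones and their partners were lower in the ALDH high cells in all 13 measured cases, 2 of them by over 1.5-fold, with a median of -0.45. With the mean or median over probe sets, or without shared-target ones, 1 of these genes was over 1.5-fold lower. HSPA5 (BiP), the main Hsp70 of the ER, had a level of 13.01 in ALDH high and 13.29 in control cells, a 1.21-fold lower level. Its dimmer probe set had 9.05 in ALDH high and 9.49 in control cells, 1.36-fold lower. HSP90B1 (GRP94), the ER Hsp90, had 11.32 in ALDH high and 11.92 in control cells, 1.52-fold lower. Its dimmer probe set differed by -0.41, and both of these can cross-hybridise with other genes. The 2 further HSP90B1 probe sets that list several genes were not used. On the brightest probe sets, the largest difference of this group belonged to a helper of BiP and not to BiP itself.

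SIL1, which exchanges the nucleotide bound by BiP, had 9.20 in ALDH high and 9.96 in control cells, 1.70-fold lower on its only probe set. HYOU1, a large Hsp70-like exchange factor, had 10.63 in ALDH high and 11.13 in control cells, 1.42-fold lower. SDF2L1, a luminal partner of DNAJB11, had 10.07 in ALDH high and 10.63 in control cells, 1.48-fold lower. The 3 J-domain partners of BiP differed less than SIL1. DNAJB9, which guides misfolded proteins to degradation, had 10.70 in ALDH high and 11.15 in control cells, and its 3 probe sets lay between -0.52 and -0.45. DNAJB11 had 11.69 in ALDH high and 11.93 in control cells, and DNAJC3, an ER J-protein also called p58IPK, had 10.22 in ALDH high and 10.53 in control cells. These correspond to 1.18-fold and 1.24-fold lower levels.

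The lectin chaperones, which hold glycoproteins until they fold, were among the least different. CALR (calreticulin) had 10.24 in ALDH high and 10.46 in control cells, 1.17-fold lower, and this probe set can cross-hybridise. Its probe set without that limit differed by -0.47. CANX (calnexin) had 13.07 in ALDH high and 13.23 in control cells, 1.11-fold lower, with 4 of its 5 probe sets below 0. UGGT1, the folding sensor that returns unfolded glycoproteins to these lectins, had 10.69 in ALDH high and 11.03 in control cells, and its 5 probe sets ranged from -0.62 to -0.34. MANF, a secreted ER stress factor that binds BiP, had 11.34 in ALDH high and 11.81 in control cells, 1.39-fold lower. CRELD2, an ER-resident stress-induced protein, had 10.95 in ALDH high and 11.46 in control cells, 1.42-fold lower.

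Genes of disulphide bond formation were lower in 6 of 6 measured cases, none by over 1.5-fold, with a median of -0.46. PDIA3 passed 1.5-fold with the mean or median over its probe sets. The ERO1 oxidases, which supply the oxidising power, and PDIA3, the isomerase that works with the lectin chaperones, differed most. ERO1A had 9.33 in ALDH high and 9.90 in control cells, 1.49-fold lower, but it differed by -0.31 on the probe set that does not share targets. ERO1B, a form abundant in the pancreas, had 8.89 in ALDH high and 9.41 in control cells, 1.44-fold lower. PDIA3 had 12.57 in ALDH high and 13.10 in control cells, 1.44-fold lower, and its dimmer probe sets differed by -0.67 and -0.70. The other isomerases were closer to level. PDIA6 had 12.82 in ALDH high and 13.22 in control cells, with all 4 probe sets between -0.44 and -0.34. PDIA4 had 12.46 in ALDH high and 12.65 in control cells, 1.14-fold lower, and differed by -0.51 on its other probe set. P4HB, the classical protein disulphide isomerase, had 12.51 in ALDH high and 12.64 in control cells, 1.10-fold lower. PDIA5 had no probe set of its own and was not analysed here.

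The translocation channel differed least among the roles, together with the degradation genes taken by their median. SEC61A1, the pore-forming subunit, had 10.84 in ALDH high and 11.03 in control cells, 1.14-fold lower. SEC61B had 12.78 in ALDH high and 12.93 in control cells, 1.11-fold lower, while its second, dimmer probe set differed by 0.16, and the mean of both was 0.00446. SEC61G was not analysed here.

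The degradation genes were uneven, with the lowest differences of the whole set and also its sole positive one. Of 9 measured genes 8 lay below 0 and 4 were over 1.5-fold lower, yet the group's median was -0.17. Without shared-target probe sets 5 of these genes were measured, and 2 were over 1.5-fold lower. HERPUD1, a membrane protein that assembles the HRD1 ubiquitin ligase complex, had 10.37 in ALDH high and 11.72 in control cells, 2.54-fold lower. Its second probe set was dimmer, with 6.12 in ALDH high and 6.44 in control cells, and both are shared-target probe sets. EDEM1, a mannosidase-like protein that marks misfolded glycoproteins for disposal, had 8.44 in ALDH high and 9.47 in control cells, 2.04-fold lower on its only probe set. SEL1L, the adaptor of the HRD1 ligase, had 9.13 in ALDH high and 10.04 in control cells, 1.87-fold lower, and its 4 probe sets ranged from -1.09 to -0.35.

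The EDEM and Derlin families did not differ evenly. EDEM2 had 8.73 in ALDH high and 9.33 in control cells, 1.52-fold lower, but EDEM3 had 9.43 in ALDH high and 9.60 in control cells, 1.12-fold lower with its 3 probe sets between -0.23 and -0.17. The Derlins are membrane proteins of the exit channel. DERL1 had 9.83 in ALDH high and 9.96 in control cells, and DERL2 had 10.63 in ALDH high and 10.77 in control cells, which are 1.09-fold and 1.10-fold lower levels. DERL3 was the exception, with 6.46 in ALDH high and 6.32 in control cells, 1.11-fold higher, and all 3 of its probe sets lay between 0.15 and 0.26. It had the lowest control level of the set, and its brightest probe set can cross-hybridise. The difference of 0.146 on that probe set lay between the quartiles of all genes, -0.175 and 0.147. OS9, a lectin that hands glycoproteins to the HRD1 complex, had 10.53 in ALDH high and 10.59 in control cells, 1.05-fold lower. SYVN1, which encodes HRD1 itself, had no probe set of its own and was not analysed here.

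Sensors and transcription factors of the ER were lower in 7 of 7 cases, 5 of them over 1.5-fold, with the lowest median of the roles at -0.64 (1.56-fold). With the mean or the median over probe sets only 2 of the 7, ATF6 and BHLHA15, were over 1.5-fold lower. ATF6, the membrane-bound factor that moves to the Golgi to be cleaved, had 9.33 in ALDH high and 10.17 in control cells, 1.79-fold lower, and its 4 probe sets ranged from -0.89 to -0.42. XBP1, whose mRNA is spliced by IRE1, had 10.63 in ALDH high and 11.28 in control cells, 1.56-fold lower. A second, dim XBP1 probe set was nearly level, at 5.40 in ALDH high and 5.43 in control cells. ERN1, which encodes IRE1, had 10.20 in ALDH high and 10.59 in control cells, 1.31-fold lower, whereas its other 2 probe sets differed by -0.06 and 0.01.

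The remaining genes of this role were BHLHA15, CREB3L1, CREB3L2 and WFS1, which is counted here but is not a transcription factor. BHLHA15 (MIST1), a factor known from mouse to build up the secretory apparatus of acinar and other secretory cells, had 7.43 in ALDH high and 8.27 in control cells, 1.80-fold lower on its only probe set. CREB3L1, a membrane-bound factor related to ATF6, had 6.29 in ALDH high and 7.14 in control cells, 1.81-fold lower. Its second probe set was dim and pointed the other way, with 5.06 in ALDH high and 4.74 in control cells. CREB3L2, a close relative, had 10.25 in ALDH high and 10.71 in control cells, 1.37-fold lower. WFS1, an ER membrane protein abundant in beta cells and mutated in Wolfram syndrome, had 8.17 in ALDH high and 8.77 in control cells, 1.51-fold lower, and its second probe set differed by -0.55. The order of the roles depended on the probe sets. With the mean over probe sets the median of the sensors and factors was -0.34, and with the median over probe sets -0.46, beside -0.47 for the chaperones under either setting.

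**Figure D3:**
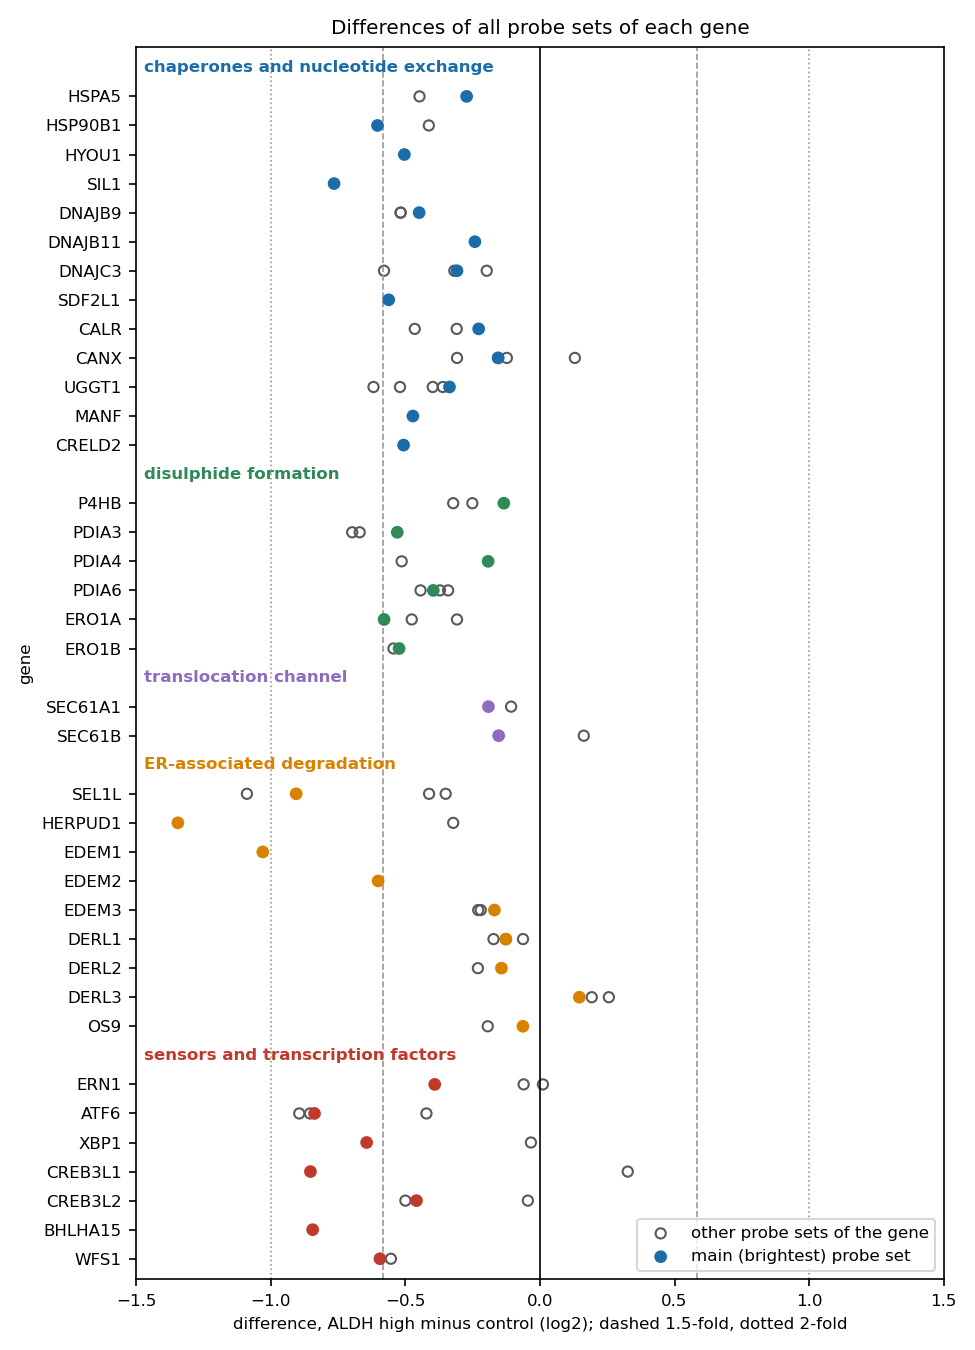
Difference between ALDH high and control (log2) for each of the 90 probe sets of the 37 ER genes, with the brightest probe set of a gene filled and the others open. Of the 90 probe sets 83 lie left of 0, and HERPUD1 and EDEM1 pass the dotted 2-fold line on their brightest probe set.

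The direction held over most probe sets of the set. Apart from the brightest probe set of each gene there were 53 others, of which 47 lay below 0 with a median of -0.32. Of 28 ER genes with several probe sets, 23 (82.1%) had all of them below 0, against 23.6% of the 10523 such genes on the array. The pooled SD between probe sets of an ER gene was 0.22, about the same as the 0.23 over all genes. Counting only probe sets at or above the array median, it was 0.18 over all genes, whereas the ER value includes dimmer ones. This spread covers disagreement between probe sets and not the spread between cultures or sorts. By the ending of their ID, 16 of the 37 brightest probe sets bind more than 1 transcript. Of these 11 share transcripts of a gene or family (_s_at) and 5 can cross-hybridise with other genes (_x_at).

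**Figure D4:**
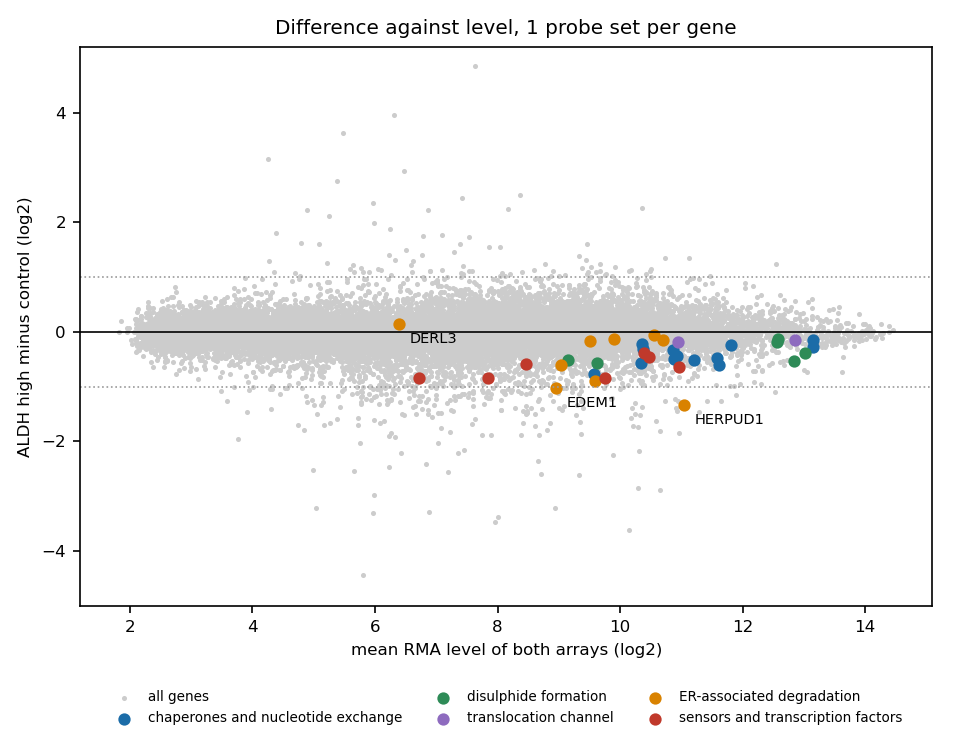
Difference between ALDH high and control (log2) against the mean RMA level of both arrays (log2), 1 probe set per gene, with all 19775 genes in grey and the ER genes coloured by role. The ER genes sit at mean levels above the array median of 5.69, and all but DERL3 lie below 0.

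Related ER genes outside the set were also lower in part. All 15 oligosaccharyltransferase and glucosidase genes, which attach and trim sugars, lay below 0, with a median of -0.26 and none over 1.5-fold. RPN1, an oligosaccharyltransferase subunit, had 10.38 in ALDH high and 10.82 in control cells, and GANAB, a glucosidase subunit, had 10.73 in ALDH high and 11.13 in control cells. Of 24 other isomerases and folding factors 19 lay below 0, 3 of them over 1.5-fold, with a median of -0.24. ERP44, which retains immature secretory proteins, had 10.82 in ALDH high and 11.59 in control cells, 1.71-fold lower. FKBP11, a prolyl isomerase, had 9.68 in ALDH high and 10.43 in control cells, 1.68-fold lower. SERPINH1, the collagen chaperone HSP47, named here after its value was seen, had 9.85 in ALDH high and 9.21 in control cells, 1.57-fold higher.

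Among 21 further translocon and signal recognition genes 17 lay below 0, none over 1.5-fold, with a median of -0.19. SEC63, which recruits BiP to the channel, had 10.17 in ALDH high and 10.70 in control cells, with all 5 probe sets below 0, and TRAM1 had 11.09 in ALDH high and 11.42 in control cells. Other degradation factors were split, with 9 of 19 below 0 and a median of 0.03. In that list ERLEC1, a lectin of the same route as OS9, had 10.82 in ALDH high and 11.41 in control cells, 1.51-fold lower, and UBE2J1, a ubiquitin-conjugating enzyme of the ER, had 9.24 in ALDH high and 9.56 in control cells. Of 22 ER to Golgi transport genes 21 lay below 0, with a median of -0.29. KDELR3, a receptor that returns escaped ER proteins, had 6.11 in ALDH high and 7.62 in control cells, 2.85-fold lower, and SEC24D, a vesicle coat subunit, had 9.35 in ALDH high and 9.90 in control cells.

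The genes of the PERK arm and the targets of ATF4 had larger differences than the ER genes. Of 16 genes 15 lay below 0 and 9 were over 2-fold lower, with a median of -1.09. The ER genes had 2 of 37 over 2-fold lower and a median of -0.46. DDIT4, TRIB3, DDIT3 and ATF3 led that list, with differences of -2.89, -2.86, -2.25 and -1.89. For ATF3, 2 of its 3 probe sets lay below 0 and the highest was 0.24. EIF2AK3, which encodes PERK and was named after its value was seen, had 9.41 in ALDH high and 9.67 in control cells, 1.19-fold lower. Its second probe set differed by 0.09. ATF4 itself, also named after its value was seen, had 11.82 in ALDH high and 12.78 in control cells, 1.94-fold lower. Whether the lists differ was not tested, and neither was the part of PERK in the levels of the listed ATF4 targets.

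**Figure D5:**
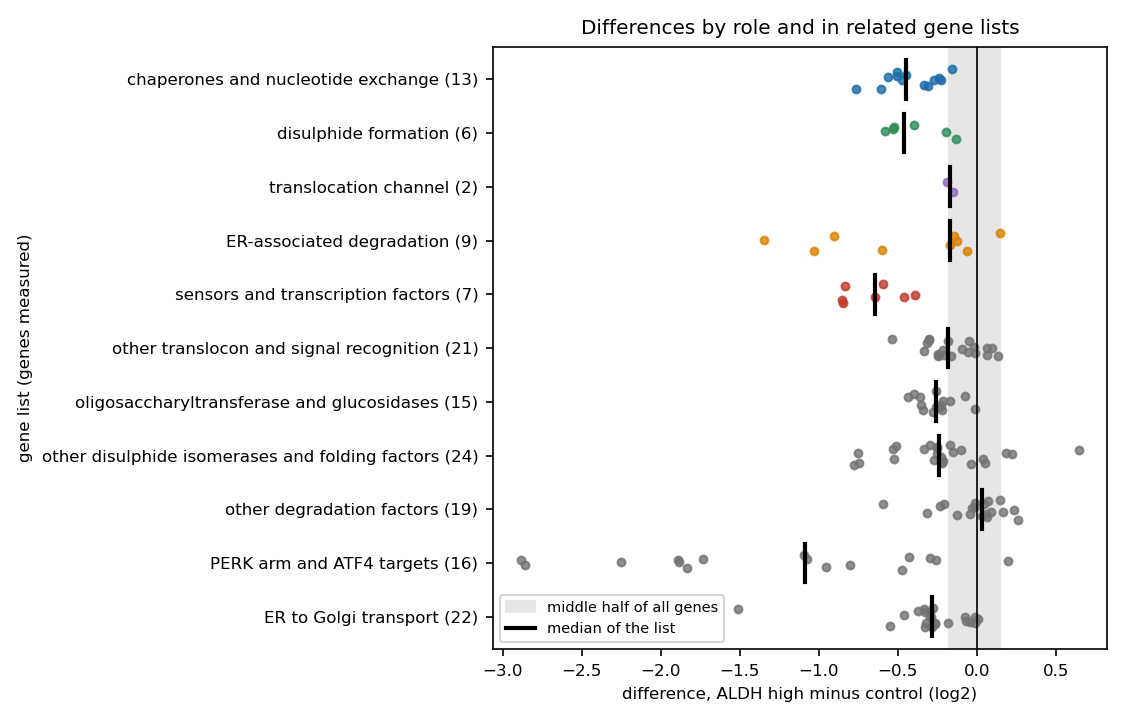
Difference between ALDH high and control (log2) of each gene, by role for the ER genes (coloured) and for 6 related lists (grey), with the number of genes measured in brackets. Black bars are medians, which run from -0.64 (sensors and transcription factors) to -0.17 (degradation genes) over the roles, and from -1.09 (PERK arm and ATF4 targets) to 0.03 (other degradation factors) over the related lists. The shaded band is the range between the quartiles of all genes, -0.18 to 0.15.

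Markers of cell identity and RNA quality were read beside these differences. All 12 measured neuroendocrine markers were at or above the array median, and 10 of them lay below 0, with a median difference of -0.14. The lowest were VGF (10.33 in ALDH high and 11.12 in control cells) and SCG5 (12.39 in ALDH high and 12.75 in control cells). INSM1, named after its value was seen, was the highest, with 11.47 in ALDH high and 11.13 in control cells. Of 10 listed acinar markers 6 were measured, and only GP2, an acinar granule protein, was at or above the array median. GP2 had 7.41 in ALDH high and 10.00 in control cells, 6.03-fold lower, and its 4 probe sets ranged from -2.59 to -0.18. The other measured ones were dim on both arrays, and CPB1 among them was higher (3.82 in ALDH high and 3.38 in control cells). The summed linear level of the 6 acinar markers was 251 in ALDH high and 1111 in control cells, and that of the 5 without GP2 was 81.2 in ALDH high and 87.8 in control cells. The difference in the acinar sum thus came mostly from GP2 alone. BHLHA15, a factor of acinar and other secretory cells, was lower too, and the part of either gene in the ER result was not tested.

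Few markers of fibroblasts or leukocytes were bright, 3 of 10 and 2 of 7. Of the fibroblast and stellate cell markers 6 lay below 0 and 3 above it, and of the leukocyte markers 4 below and 3 above. The summed linear level of the fibroblast and stellate cell markers was 433 in ALDH high and 491 in control cells, and that of the leukocyte markers was 243 in ALDH high and 298 in control cells. The largest differences there were those of FAP (3.91 in ALDH high and 4.34 in control cells), ACTA2 (4.98 in ALDH high and 5.40 in control cells), LYZ (4.34 in ALDH high and 5.67 in control cells) and CD14 (4.30 in ALDH high and 5.32 in control cells), all below the array median. The 3' to 5' ratio of the ACTB control probe sets was 1.83-fold in ALDH high and 1.67-fold in control cells, while the GAPDH ratio was 1.14-fold in ALDH high and 1.15-fold in control cells. On average the 24 poly-A spike-in controls were 0.32 higher on the ALDH high array and the 18 hybridisation controls 0.05 higher. The part of these controls in the ER result was not tested. In RNA of whole cultures or sorted fractions, fewer cells rich in a transcript and less of it per cell cannot be told apart.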

How the data were processed

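The authors made the deposited log2 levels with RMA, per the submitters' processing notes, for 54675 probe sets on each of 2 arrays, 1 per group. The sources used here give neither the RMA version nor which arrays were normalised together. RMA makes the arrays' distributions equal, so a shift common to most genes would not show. Symbols were taken from the platform annotation of GEO: 41097 probe sets had 1 symbol, 1801 had several and 11777 had none listed, and 41043 of the single symbols were found by Entrez ID in RefSeq (GRCh38.p14). Per gene, the probe set with the highest mean of both arrays was used, with no filter. Probe sets ending in _s_at, _x_at or _a_at are called shared-target, and only those ending in _x_at mark cross-hybridisation with other genes. No test was made; fold thresholds were 1.5 and 2. Alternatives were the mean or median over probe sets, no shared-target probe sets, a pseudocount of 32 on the linear scale, genes at or above the median level, and centring on all genes. The members and lists were chosen with earlier results of these data known. Named are all members, and from each other list at most 4 genes over 2-fold and never fewer than the 2 that differed most. Python 3.11.15 and pandas 2.3.3 were used. The number of arrays limits the precision.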

Additional observations from a re-analysis of the deposited data

How the results depend on the processing

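The median of the ER genes stayed between -0.47 and -0.39 under the 6 alternatives. Genes below 0 numbered 35 or 36 of 37, and 28 of 29 without shared-target probe sets, which left 8 genes with no probe set. Of all genes compared under each alternative, 49.6% to 50.3% lay below 0. Over 1.5-fold lower were 8 to 11 ER genes, 8 of 29 without shared-target probe sets, beside 2.73% to 5.52% of the genes compared. No ER gene was over 1.5-fold higher, a class that held 1.77% to 3.53% of the genes compared. The class over 2-fold lower held 0.642% to 1.66% of the genes compared. Genes over 2-fold lower came to 1 in place of 2 with the mean or the median over probe sets (HERPUD1 at -0.83, EDEM1 kept), without shared-target probe sets (HERPUD1 not measured) and with the pseudocount (EDEM1 at -0.97). Of 214 values of single ER genes under the alternatives, 12 moved by more than the 0.23 SD between probe sets and 0 of those past 1.5-fold changed sign. Many of the 214 could hardly move. The setting of genes at or above the median level changed no ER value, and centring took out only the median of -0.00504. The 9 genes with 1 probe set could not change under the mean or median. All 12 moves came from averaging probe sets or leaving out shared-target ones. ERN1 (-0.15), XBP1 (-0.34) and CREB3L1 (-0.26) were the sensors and factors that moved when probe sets were averaged, and the cause was not tested. The array holds no detection calls, so dim probe sets could show little. No paired analysis was possible because each group had 1 array. With 1 array per group no array could be left out.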
